A study of Mus musculus with 16 samples.

Results

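The livers of mice given Ad-FAT10, an adenovirus for overexpression of FAT10, were compared with the livers of mice given the control adenovirus Ad-CTRL, both under the vehicle of the drug arm. The comparison takes 8 of the 16 RNA sequencing libraries of the study, 4 of Ad-FAT10 CMC (replicates 1 to 4) and 4 of Ad-CTRL CMC (replicates 1 to 4), chosen by their titles and described across all genes, and a positive change means a higher level with Ad-FAT10. All mice were wild-type C57BL/6J, 8 weeks of age when either virus was injected into the tail vein at a common dose of genome copies. After 4 days both groups were gavaged with CMC, the vehicle, at 18 h and again at 5 h ahead of liver collection, with food withheld for the last 5 h. The remaining 8 libraries are those of the same viruses with 1 mpk of pemafibrate (Pema), an agonist of the nuclear receptor PPARα, in place of the vehicle. They served to estimate the spread, and to ask if the adenovirus difference was alike with the drug. The promoter of the FAT10 vector, the insert of the control vector, the sex of the mice and the amount of vector in each liver are not stated in the labels. Nothing in the labels says that 2 libraries share a mouse, and each is taken as 1 liver.

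FAT10, encoded by Ubd, is a ubiquitin-like protein that is joined to other proteins through the E1 enzyme UBA6 and the E2 enzyme UBE2Z, and that delivers them to the proteasome. Its gene is induced by interferon gamma and tumour necrosis factor and is low in resting liver. Adenovirus injected into a vein is taken up largely by the liver, where hepatocytes express the transgene and Kupffer cells, the resident macrophages, clear much of the vector. The liver answers such a load with innate and T cell responses, and hepatocytes, which rarely divide in the adult, can re-enter the cell cycle after injury.

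The 8 libraries held 18663498 to 24657387 counts, at which 3 counts equal 0.122 to 0.161 CPM by library totals, the unit of counts scaled to a common library size. All levels below are CPM after TMM scaling (which sets the typical gene level between libraries), given for replicates 1 to 4 in that order or as mean ± SD with n = 4, and log2 changes are given ± SE. The TMM factors were 0.909 to 0.929 in Ad-CTRL and 1.06 to 1.19 in Ad-FAT10. On the TMM scale 3 counts are thus a higher level in Ad-CTRL and a lower one in Ad-FAT10 than by library totals. Genes encoded by the mitochondrial genome held 5.82 to 8.76% of the counts in Ad-CTRL and 4.59 to 5.61% in Ad-FAT10. The 10 most abundant genes of each library held 18.9 to 20.1% and 14.6 to 16.3%, and 40 genes of proteins that hepatocytes secrete held 17.1 to 20.1% and 13.8 to 16.2%. The groups overlapped in none of these 3 shares (exact two-sided permutation test over 70 assignments, p = 0.0286 for each, the smallest that 4 against 4 allows, and 0.0286 after adjustment over the 3). The 40 genes form a list chosen with earlier results of these data known, so that test is not independent of the data. The 3 shares can also count the same abundant genes, so their p-values are not separate results. The counts in all 16 libraries had the pattern of male mice, with 952 to 1992 counts of the Y-linked Ddx3y and 0 to 4 of Xist.

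Ubd, the gene that the vector carried, was at 15.2, 8.64, 12 and 9.0 CPM in Ad-CTRL and at 110.5, 167, 339 and 330.2 CPM in Ad-FAT10. Every Ad-FAT10 liver lay far above every control liver, and replicates 3 and 4 had about the same level, well above the other two. The log2 change was 4.41 ± 0.39 (SE, 21.2-fold, edgeR adjusted p = 4.8e-07). Counts per gene cannot tell vector-derived Ubd transcripts from those of the chromosomal gene. Of 21 genes for FAT10 conjugation and its ubiquitin partners, Ubd included, 9 rose and 1 fell (16 and 0 with library totals in place of TMM), where 22.5% of all 14770 genes tested rose and 20.2% fell. Ubd was the 1 gene of the list that rose by 2-fold or more. Ube2z, the E2 enzyme of FAT10, was at 62.5 ± 6.48 CPM and 67 ± 3.36 CPM and did not pass the test (log2 change 0.10 ± 0.09, adjusted p = 0.39). Uba6, its E1 enzyme, rose by 0.38 ± 0.12 (adjusted p = 0.0157), a call that was lost without Ad-FAT10 CMC replicate 1 (adjusted p = 0.052). Sqstm1, the autophagy receptor p62, rose from 395 ± 43.2 to 618 ± 98.7 CPM (0.65 ± 0.16). Uba7 and Herc6, enzymes that attach the related modifier ISG15, rose by 0.63 ± 0.19 and 0.77 ± 0.18. The 34 genes of the constitutive proteasome had a median log2 change of 0.09 and 8 rose and 1 fell (21 rose with library totals, 3 with no filter on low counts, 4 without Ad-FAT10 CMC replicate 2, and 5 without either Ad-FAT10 CMC replicate 3, Ad-FAT10 CMC replicate 4 or Ad-CTRL CMC replicate 3).

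Across the transcriptome, 6293 genes (42.6% of those tested) passed the test, 3316 higher and 2977 lower. The rises were larger than the falls. Their median size was 1.69-fold against 1.49-fold, 1213 genes (8.21%) rose and 492 (3.33%) fell by at least 2-fold, and 62 rose and 7 fell by at least 8-fold. Of the rises of at least 2-fold, 525 were from an Ad-CTRL mean under 1 CPM, and of the falls of at least 2-fold 207 were to an Ad-FAT10 mean under 1 CPM, where counts are few. All 4 Ad-FAT10 libraries lay above all 4 control libraries in 20.3% of the genes tested, and below them in 17.8%. On the first principal component of the 8 libraries, which held 61.8% of the variance, the Ad-CTRL libraries lay between -43.95 and -36.4 and the Ad-FAT10 libraries between 32.99 and 51.1. The split into higher and lower genes depends on the scaling. With library totals in place of TMM factors, the median log2 change of all genes moved from -0.01 to 0.28. With those totals 6365 genes rose and 1061 fell, so that 85.7% of the calls were rises in place of 52.7%. Falls outnumbered rises with DESeq2 (3364 and 3136), with RLE factors (3263 and 3119) and without Ad-FAT10 CMC replicate 2 (3056 and 2936). Changes below are from the TMM fit, in which the median gene did not move, and a list is said to have flipped where its median changed sign with library totals. In bulk liver, fewer cells of a type and less RNA per cell cannot be told apart.

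**Figure D1:**
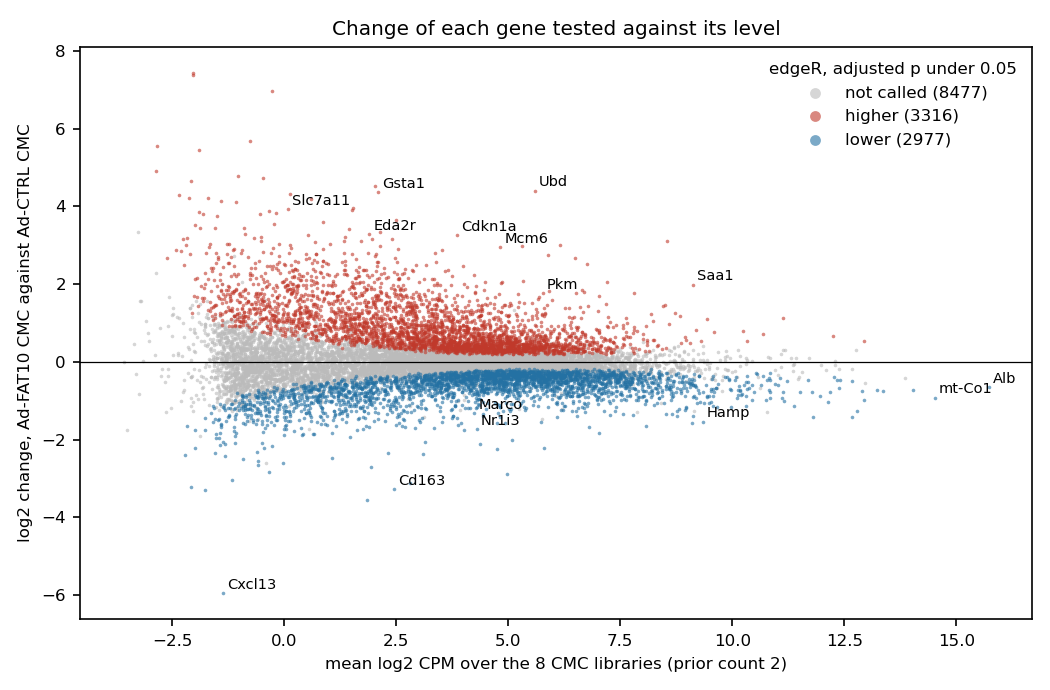
Log2 change with Ad-FAT10 under CMC (vertical axis) against the mean log2 CPM over the 8 libraries (horizontal axis), 1 point for each of the 14770 genes tested, coloured by the edgeR call. The 3316 higher genes reach farther from 0 than the 2977 lower ones, most of all at low levels, and the most abundant genes, such as Alb and mt-Co1, lie below 0.

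Among genes with a standard symbol whose mean log2 CPM reached 1 and whose groups did not overlap, the 15 largest rises were led by Ubd and then by Gsta1, a glutathione S-transferase. Gsta1 was at 0.88, 0.924, 1.11 and 1.08 CPM in Ad-CTRL and 7.43, 10.3, 27.4 and 38 CPM in Ad-FAT10. It was low in every control liver and highest in Ad-FAT10 replicates 3 and 4 (4.38 ± 0.57, adjusted p = 1.67e-05). Reads of Gsta1 may be shared with its near copy Gsta2. Mmp12, the elastase of macrophages, rose by 3.97 ± 0.41, and Cbr3, a carbonyl reductase, by 3.90 ± 0.68 (3.25 without Ad-FAT10 CMC replicate 4). Others were Ddit4l, a stress-induced regulator of mTORC1 (3.42 ± 0.36), the surface protein gene Ly6d (3.33 ± 0.41), the p53 targets Eda2r and Cdkn1a, the neutrophil gene S100a8, the defensin gene Defb1 (3.16 ± 0.35), the repair genes Rad51c (3.11 ± 0.36) and Fignl1 (3.04 ± 0.28), Slc35f2 (3.12 ± 0.28), and the secreted protein genes Lcn2 and Chil3.

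The largest falls by the same rule were 4 genes of Kupffer cells. Timd4, a receptor for phosphatidylserine, was at 12.1, 13, 14.7 and 12.1 CPM in Ad-CTRL and 1.97, 1.68, 0.506 and 0.412 CPM in Ad-FAT10. Cd163, the scavenger receptor for haemoglobin and haptoglobin, went from 16.9 ± 2.05 to 1.77 ± 0.657 CPM (-3.28 ± 0.29, 9.73-fold lower, adjusted p = 4.8e-07). Vsig4, a complement receptor, changed by -3.11 ± 0.31 and Clec4f, a lectin particular to Kupffer cells, by -2.89 ± 0.32. All 4 genes were low in every Ad-FAT10 liver. After them came genes of hepatocytes and others: Cyp2c69 (-2.47 ± 0.56, but -1.86 without Ad-CTRL CMC replicate 3 and -3.09 without Ad-FAT10 CMC replicate 4), Cyp2c40 (-2.35 ± 0.52), Clec2h (-2.37 ± 0.25), Nrep (-2.25 ± 0.28), Serpina4-ps1 (-2.23 ± 0.39), Mup12 (-2.12 ± 0.58), Slc22a28 (-2.06 ± 0.27) and Hsd3b5 (-1.84 ± 0.57). The Cyp2c and Mup families hold near-identical copies, among which reads may be split.

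Genes of DNA replication and of mitosis rose almost throughout. Of 44 genes of mitosis and the spindle 42 rose and 1 fell, with a median log2 change of 2.07, and 40 rose by at least 2-fold. Of 49 genes of DNA replication 42 rose and 3 fell (1 fell with library totals), with a median of 1.09. Mcm6, a subunit of the helicase that opens replication origins, had the smallest p of all genes. It was at 10.3, 9.75, 9.66 and 11.1 CPM in Ad-CTRL and 57.4, 80.2, 75.7 and 103 CPM in Ad-FAT10, and the spread within either group was small beside the 7.76-fold difference (2.96 ± 0.16, adjusted p = 4.78e-09). The other helicase subunits Mcm2, Mcm3, Mcm4 and Mcm5 rose by 2.20 ± 0.16, 1.92 ± 0.14, 1.85 ± 0.16 and 2.34 ± 0.14, and the replication ligase Lig1 by 2.36 ± 0.17. Cdk1, the kinase that drives entry into mitosis, was at 4.87, 5.59, 4.53 and 4.47 CPM and 17, 16, 24.2 and 28 CPM (2.13 ± 0.18). Ccnb1, its cyclin partner, was at 2.35, 1.62, 2.68 and 2.16 CPM and 13.8, 9.6, 14.9 and 17.4 CPM (2.66 ± 0.20). Both were several-fold higher in each Ad-FAT10 liver, with replicate 2 the lowest of them. Top2a, the topoisomerase that untangles chromosomes, rose by 2.47 ± 0.18, Cdc20, the activator of the anaphase-promoting complex, by 2.49 ± 0.18, and Prc1, which bundles spindle microtubules, by 2.57 ± 0.20. Counts from bulk liver do not show which cells held these transcripts. Markers of neutrophils, macrophages and T cells rose in the same livers (below), and their part in these rises was not tested.

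The cyclins that begin the cycle did not move alike. Of 32 genes for G1/S cyclins, E2F factors and CDK inhibitors 21 rose and 3 fell (26 rose and 0 fell with library totals, and 1 fell without Ad-CTRL CMC replicate 2 or without Ad-FAT10 CMC replicate 4). Ccne1, the cyclin of entry into S phase, rose from 5.35 ± 0.984 to 18.7 ± 4.59 CPM (1.81 ± 0.20). Ccnd1, the growth-factor cyclin that rises early in liver regeneration, was at 23.8, 18, 34.5 and 37.2 CPM in Ad-CTRL and 26.7, 13.7, 17.7 and 18.6 CPM in Ad-FAT10. The groups overlapped, and the change did not pass the test (-0.57 ± 0.32, adjusted p = 0.159, though it passed with no filter on low counts). Ccnd3 was at 40.4 ± 5.26 and 41.6 ± 2.8 CPM. The repressor E2f7 rose by 2.39 ± 0.25, the pocket protein gene Rbl1 by 1.80 ± 0.12 and Foxm1, the factor of the mitotic programme, by 2.05 ± 0.21. Of 34 genes for histones and chromatin 19 rose and 1 fell, among them the maintenance DNA methyltransferase Dnmt1 (1.67 ± 0.11), the remodeller Hells (2.35 ± 0.20) and the Polycomb methyltransferase Ezh2 (1.13 ± 0.10).

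Promoter sequences of 4 of these genes are shown, with the motifs of known cell cycle factors that they hold. For 10910 of the genes tested, the 250 bases before the first listed start were taken from RefSeq (GRCm38.p6) and searched on both strands for TTTGAA (the core of the cell cycle homology region, CHR), CCAAT (the box bound by NF-Y), and TTGGCGC and TTCCCGCC (E2F sites). TTTGAA stood in 14 of 37 promoters of the mitosis list (37.8%), 3 of 40 of the replication list (7.5%) and 11.1% of all promoters. CCAAT stood in 78.4%, 62.5% and 36.6%, and TTGGCGC in 10.8%, 12.5% and 3.4%. TTCCCGCC stood in 0%, 10.0% and 3.36%. Among all genes that rose by at least 2-fold the shares were 14.4% for TTTGAA, 37% for CCAAT, 2.91% for TTGGCGC and 2.46% for TTCCCGCC, and among those that fell by at least 2-fold they were 15.4%, 34.3%, 2.24% and 3.21%. None of the motifs shown overlaps another in these promoters. In the sequences below, written 5′ to 3′ on the strand of the gene and ending at the base before the start, capitals mark these motifs on either strand.
Mcm6, chr1:128359706-128359955, minus strand: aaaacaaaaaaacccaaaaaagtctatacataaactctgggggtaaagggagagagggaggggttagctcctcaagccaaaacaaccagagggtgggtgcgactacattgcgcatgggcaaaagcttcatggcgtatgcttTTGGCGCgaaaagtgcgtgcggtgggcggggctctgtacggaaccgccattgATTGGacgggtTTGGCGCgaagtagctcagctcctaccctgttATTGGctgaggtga
Cdk1, chr10:69352913-69353162, minus strand: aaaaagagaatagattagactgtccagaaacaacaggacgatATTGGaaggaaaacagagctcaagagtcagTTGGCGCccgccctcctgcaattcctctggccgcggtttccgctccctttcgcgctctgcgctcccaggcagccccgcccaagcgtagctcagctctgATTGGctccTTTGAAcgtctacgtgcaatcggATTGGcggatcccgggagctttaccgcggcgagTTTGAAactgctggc
Top2a, chr11:99024190-99024439, minus strand: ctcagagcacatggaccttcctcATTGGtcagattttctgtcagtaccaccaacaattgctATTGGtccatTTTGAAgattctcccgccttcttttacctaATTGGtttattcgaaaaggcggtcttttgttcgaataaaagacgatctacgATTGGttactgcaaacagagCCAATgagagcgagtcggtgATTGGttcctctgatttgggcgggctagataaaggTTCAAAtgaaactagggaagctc
Cdc20, chr4:118437344-118437593, minus strand: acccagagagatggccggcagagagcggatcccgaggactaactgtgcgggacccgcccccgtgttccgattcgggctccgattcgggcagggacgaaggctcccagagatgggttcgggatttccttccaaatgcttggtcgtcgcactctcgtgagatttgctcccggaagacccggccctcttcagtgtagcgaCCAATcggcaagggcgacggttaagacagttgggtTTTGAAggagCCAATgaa
Mcm6 holds 2 copies of TTGGCGC and 2 of CCAAT, and Cdk1 has 2 of TTTGAA, 3 of CCAAT and 1 of TTGGCGC. Top2a holds 6 CCAAT boxes and 2 copies of TTTGAA, and Cdc20 has 2 and 1. A match is a description of the sequence and not evidence of binding.

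Targets of p53 rose together with the cell cycle genes. Of 39 p53 targets 26 rose and 6 fell (30 rose and 1 fell with library totals, 2 fell without Ad-CTRL CMC replicate 2, and 3 without either Ad-CTRL CMC replicate 3 or Ad-FAT10 CMC replicate 3), with a median of 0.72. Cdkn1a, which encodes the CDK inhibitor p21, was at 4.34, 4.94, 5.36 and 4.47 CPM in Ad-CTRL and 29.9, 40.4, 41.6 and 72.6 CPM in Ad-FAT10, so that the lowest Ad-FAT10 liver was several-fold above the highest control. Eda2r, a death-domain receptor of the tumour necrosis factor family, was at 1.11, 1.06, 1.11 and 1.34 CPM and 8.39, 13, 9.64 and 14.4 CPM (3.30 ± 0.23, adjusted p = 5.16e-08), and again no library of one group came near the other. Tnfrsf10b, the receptor for TRAIL, rose by 3.60 ± 0.28, Phlda3, an inhibitor of AKT, by 2.78 ± 0.22, Zmat3 by 1.35 ± 0.10, and Mdm2, the ubiquitin ligase that degrades p53, by 0.78 ± 0.08. Of 40 genes for DNA repair and the replication checkpoint 29 rose and 0 fell at adjusted p under 0.05, including Chek1 (2.78 ± 0.29) and Brca1 (1.70 ± 0.17). Of 37 genes for apoptosis and death receptors 17 rose and 3 fell (0 fell with library totals, 7 with DESeq2, 6 with RLE factors or without Ad-FAT10 CMC replicate 2, and 5 without Ad-CTRL CMC replicate 1, Ad-CTRL CMC replicate 4, Ad-FAT10 CMC replicate 1 or Ad-FAT10 Pema replicate 1). The necroptosis effector Mlkl rose by 1.77 ± 0.21, the apoptosome gene Apaf1 by 1.33 ± 0.16, the BH3-only gene Pmaip1 by 1.83 ± 0.27, and Tnfrsf12a, the receptor for TWEAK, by 1.60 ± 0.25. The survival gene Bcl2l1 was at 39.4 ± 7.59 and 42.5 ± 6.5 CPM and did not pass (adjusted p = 0.527).

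Oxidative stress genes controlled by NRF2 gave a mixed list, in which 15 of 30 rose and 4 fell. Srxn1, which repairs oxidised peroxiredoxins, was at 43.7, 40.2, 52.2 and 50.4 CPM in Ad-CTRL and 147, 201, 326 and 402 CPM in Ad-FAT10 (2.53 ± 0.36). It was higher in every Ad-FAT10 liver, and replicates 3 and 4 were again the highest. Hmox1, haem oxygenase, rose by 1.26 ± 0.19 and Gclc, the catalytic subunit of glutathione synthesis, by 1.06 ± 0.27, while its modifier subunit Gclm was at 234 ± 6.56 and 234 ± 16.4 CPM (adjusted p = 0.983). Nqo1 rose by 1.21 ± 0.38, a call lost without Ad-FAT10 CMC replicate 4 (adjusted p = 0.0779). Sod1, the cytosolic superoxide dismutase, fell from 1028 ± 14.4 to 564 ± 50.8 CPM (-0.87 ± 0.11). In the 4 Ad-FAT10 livers, replicates 3 and 4 thus stood highest for Ubd, Gsta1, Cbr3 and Srxn1, and lowest for the Kupffer cell genes Timd4, Cd163, Vsig4 and Clec4f. With 4 livers no relation was tested, and these genes were singled out after their values had been seen.

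Of 32 genes of the unfolded protein response and the integrated stress response 9 rose and 5 fell, shares near those of all genes tested (3 fell without Ad-CTRL CMC replicate 3, and 13 rose and 1 fell with library totals). Slc7a11, the cystine transporter, was at 0.411, 0.139, 0.324 and 0.154 CPM in Ad-CTRL and 2.89, 1.61, 4.77 and 6.32 CPM in Ad-FAT10 (3.93 ± 0.49). The gene was near the limit of detection in control livers and clearly present in all Ad-FAT10 livers. Psat1 of serine synthesis rose by 2.23 ± 0.30, the mitochondrial folate enzyme Mthfd2 by 1.58 ± 0.22, Aldh18a1 of proline synthesis by 1.54 ± 0.22 and the stress factor Atf3 by 1.75 ± 0.30. The chaperone genes of the endoplasmic reticulum Hspa5 and Hsp90b1 had log2 changes of -0.07 ± 0.16 and 0.01 ± 0.14 and did not pass (adjusted p = 0.729 and 0.945). Xbp1, the factor of the unfolded protein response, and Herpud1 fell by 0.60 ± 0.16 and 0.44 ± 0.11, calls that were lost with library totals (adjusted p = 0.105 and 0.334).

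Most markers of neutrophils, of monocyte-derived macrophages and of T and NK cells rose, and most of those of B cells and sinusoidal endothelium fell. Of 18 neutrophil genes 13 passed the filter on low counts, and 12 of these rose (median 2.81, and 11 rose without Ad-FAT10 CMC replicate 2). The summed level of the 13 genes ran from 11.4 to 21.2 CPM in Ad-CTRL and from 50.2 to 162.3 CPM in Ad-FAT10. The filter keeps a gene with enough counts in the libraries of a single group. Genes near 0 in Ad-CTRL can thus enter through their level in Ad-FAT10, which may raise the count and the median. S100a8, a calcium-binding protein of neutrophils, was at 3.34, 1.66, 1.71 and 1.18 CPM and 20.2, 33.7, 8.06 and 8.1 CPM (3.17 ± 0.43). Ad-FAT10 replicate 2 was the highest and replicates 3 and 4 were close together at the low end, still above every control. Csf3r, the receptor for the granulocyte growth factor, rose by 1.69 ± 0.16.

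Of 28 genes of monocyte-derived and lipid-associated macrophages 26 rose and 1 fell, with a median of 1.56. The monocyte genes Ly6c2 and Ccr2 rose by 1.87 ± 0.23 and 1.61 ± 0.24. Gpnmb, a glycoprotein of lipid-laden macrophages, was at 0.352, 0.185, 0.37 and 0.36 CPM in Ad-CTRL and 4.72, 5.81, 5.71 and 7.11 CPM in Ad-FAT10, with no overlap and little spread in either group (4.20 ± 0.39). Lgals3 rose by 2.06 ± 0.21, the integrin gene Itgax by 2.15 ± 0.29, Chil3 by 2.98 ± 0.32 and Cd14, the coreceptor for lipopolysaccharide, by 2.36 ± 0.16. The summed level of the list overlapped between the groups, at 1883.5 to 2289.9 CPM and 2009.7 to 2459.6 CPM. Of 31 T and NK cell genes 25 rose and 1 fell, and their summed level was 53.8 to 85.9 CPM in Ad-CTRL and 103.5 to 138.4 CPM in Ad-FAT10. Prf1, which encodes perforin, was at 1.99, 1.25, 1.85 and 0.823 CPM and 8.62, 4.51, 7.98 and 6.28 CPM (2.21 ± 0.32). The granzyme gene Gzmb rose by 1.56 ± 0.27 and the T cell receptor subunit Cd3e by 1.85 ± 0.30, while Cd4 did not pass (adjusted p = 0.0506, though it passed in 12 of 26 other fits). Zap70, a kinase of T cell receptor signalling, went the other way, from 12.1, 9.42, 9.57 and 9.16 CPM to 4.82, 4.86, 4.33 and 4.43 CPM (-1.12 ± 0.17), again without overlap.

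Of 15 B and plasma cell genes 0 rose and 9 fell at adjusted p under 0.05 (median -1.01, and 5 fell among genes with a mean of at least 1 CPM), among them the B cell receptor genes Cd79a (-1.39 ± 0.30) and Ighd (-1.37 ± 0.34). Both are at low levels, and the summed level of the list overlapped between the groups, at 33.04 to 47.6 and 33.02 to 39.9 CPM. Cxcl13, the chemokine that draws B cells into follicles, had the largest fall of all, from 1.7, 2.12, 1.34 and 0.823 CPM to 0, 0.0382, 0 and 0.0343 CPM. The control libraries held 120 counts and the Ad-FAT10 libraries 2, a ratio of 78.8 with an exact conditional 95% interval of 21.4 to 658.2 that covers counting error only.

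The Kupffer cell list was divided. Of 24 genes 10 fell and 7 rose (4 rose without Ad-CTRL CMC replicate 1), and its median of -0.16 flipped to 0.12 with library totals, with 6 falls and 10 rises. Falls of at least 2-fold numbered 7 and such rises 2. Its summed level, in which abundant genes weigh most, was 1352.5 to 1532.1 CPM in Ad-CTRL and 1404.8 to 1760.3 CPM in Ad-FAT10. Its mean log2 CPM, less the Ad-CTRL mean, was -0.10 to 0.16 in Ad-CTRL and -0.81 to -0.23 in Ad-FAT10, without overlap. Beside the 4 genes named above, the prostaglandin-degrading Hpgd changed by -0.70 ± 0.12, while Il18bp, the inhibitor of interleukin 18, rose by 1.42 ± 0.19. Marco changed by -1.33 ± 0.46 (adjusted p = 0.0268), a call lost with library totals and on leaving out Ad-CTRL CMC replicate 2 or 3 or Ad-FAT10 CMC replicate 3 or 4 (highest adjusted p = 0.0795). Of 27 genes of sinusoidal endothelium 0 rose and 19 fell at adjusted p under 0.05 (median -0.70, and 11 fell with library totals), and their summed level was 581.6 to 791.2 CPM in Ad-CTRL and 390.8 to 546.2 CPM in Ad-FAT10. Clec4g, a lectin of these cells, was at 39.4, 51, 37.6 and 47 CPM in Ad-CTRL and 23, 15.8, 16.4 and 14.9 CPM in Ad-FAT10 (-1.32 ± 0.19), and all Ad-FAT10 livers lay below all controls. The receptor Kdr for vascular endothelial growth factor changed by -1.12 ± 0.21, the phosphatase Ptprb by -1.21 ± 0.21 and the scavenger receptor Stab2 by -0.78 ± 0.13. Lyve1, the hyaluronan receptor of the same cells, did not pass (0.31 ± 0.25, adjusted p = 0.346).

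Stellate cell and matrix genes did not move one way. Of 31 genes 5 rose and 10 fell (6 fell without Ad-FAT10 CMC replicate 4), and the median of -0.23 flipped to 0.05 with library totals, with 9 rises and 4 falls. The collagen genes Col1a1, Col1a2 and Col3a1 had log2 changes of 0.56 ± 0.32, 0.03 ± 0.23 and 0.04 ± 0.25 and did not pass, though Col1a1 passed with library totals and with no filter on low counts. Col4a1, of basement membrane collagen, rose by 1.12 ± 0.20 and the matrix gene Thbs1 by 2.27 ± 0.29, while Hand2, a factor of stellate cells, fell from 6.17 ± 1.01 to 1.98 ± 0.207 CPM (-1.65 ± 0.21). Of 29 genes of cholangiocytes and fetal liver 19 were tested, and 6 rose and 1 fell (4 rose without Ad-FAT10 CMC replicate 2). Among the rises 3 were of at least 2-fold, and the median of -0.04 flipped to 0.25 with library totals. The defining genes of cholangiocytes Krt7, Krt19 and Epcam had means between 0.651 and 1.59 CPM in both groups and none passed, and Sox9 rose by 1.14 ± 0.25.

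**Figure D2:**
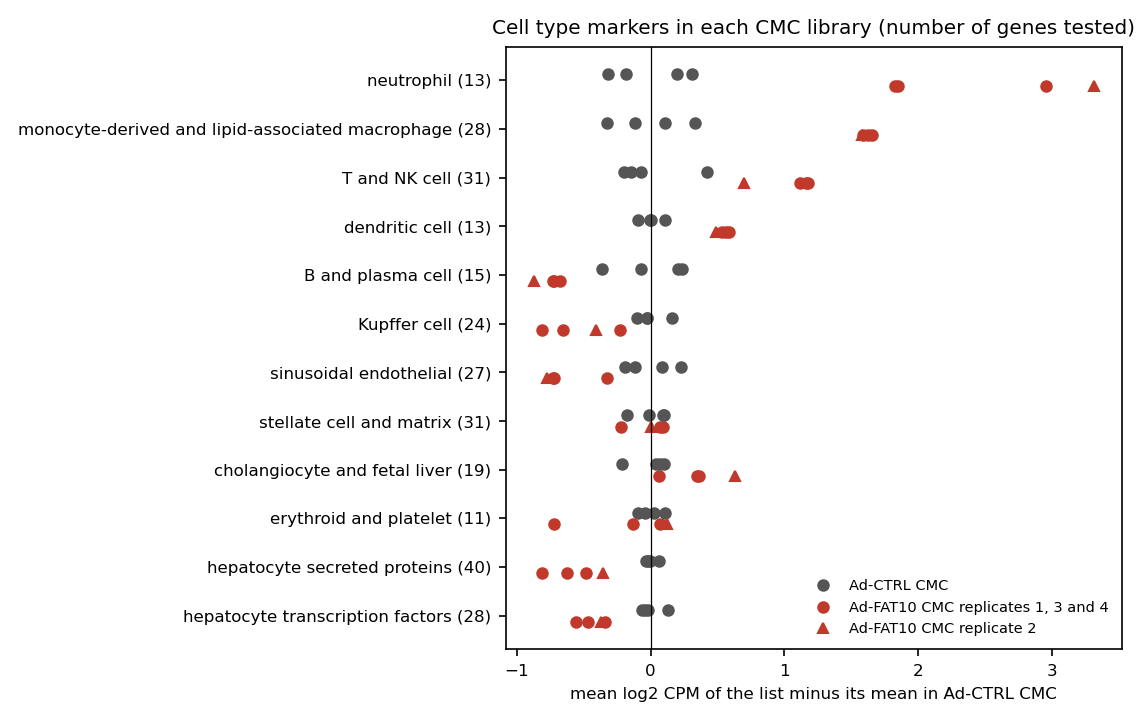
Mean log2 CPM of each cell type list in each of the 8 libraries, less the mean of the 4 Ad-CTRL libraries (horizontal axis, log2 units), with Ad-CTRL in grey, Ad-FAT10 in red and Ad-FAT10 replicate 2 as a triangle. The neutrophil list lies between 1.83 and 3.32 in the Ad-FAT10 libraries and is highest in replicate 2, and the stellate cell, erythroid and cholangiocyte lists overlap between the groups.

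Interferon-induced genes rose unevenly. Of 27 genes for interferon gamma GTPases and chemokines 24 rose and 0 fell at adjusted p under 0.05 (median 1.21). Tgtp2, a GTPase that attacks the vacuoles of parasites, was at 21.9, 20.7, 23.7 and 14.7 CPM in Ad-CTRL and 79.5, 52.2, 128 and 84.2 CPM in Ad-FAT10 (2.09 ± 0.25). Gbp5, a guanylate-binding protein, was at 23.2, 18.7, 18.7 and 12.8 CPM and 59.6, 32.6, 62.9 and 48.8 CPM (1.48 ± 0.20, adjusted p = 2.61e-05). In both genes Ad-FAT10 replicate 2 was the lowest of its group and still above the controls. Gbp9 rose by 1.82 ± 0.19, Iigp1 by 1.14 ± 0.24, the transcription factor Irf8 by 1.27 ± 0.17 and Ciita, the master regulator of class II antigen presentation, by 1.72 ± 0.24. Members of the Gbp, Tgtp and Iigp families have close copies.

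Among 36 genes typical of type I interferon 22 rose and 0 fell at adjusted p under 0.05 (median 0.52), but several of the usual reporters were not among them. Ifit1, which binds viral RNA, was at 107, 57.9, 73.2 and 58.9 CPM in Ad-CTRL and 76.7, 41.7, 74.2 and 47.4 CPM in Ad-FAT10 (-0.31 ± 0.28, adjusted p = 0.389). Ifit3 (0.22 ± 0.26) and the modifier Isg15 (0.48 ± 0.26) did not pass either, at adjusted p = 0.503 and 0.137, though Isg15 passed with library totals, with no filter on low counts and without Ad-CTRL CMC replicate 1. The groups overlapped in all 3 genes, and replicate 1 was the highest Ad-CTRL library in each. Ifit2 (0.90 ± 0.26), Oas3 (1.23 ± 0.22) and the nucleic acid sensor Zbp1 (1.38 ± 0.24) rose. Of 22 genes for the immunoproteasome and antigen presentation 19 rose and 0 fell at adjusted p under 0.05 (median 0.80). The catalytic subunits Psmb8, Psmb9 and Psmb10 rose by 0.79 ± 0.18, 0.89 ± 0.18 and 0.72 ± 0.17, the peptide transporter Tap1 by 0.94 ± 0.16 and the class I gene H2-D1 by 0.78 ± 0.14, while H2-K1 did not pass (0.31 ± 0.14, adjusted p = 0.0892).

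The interferon response motif, searched on both strands in the same 250 bases as a pair of TTTC blocks with any 2 bases between them, stood in 12 of 19 promoters of the interferon gamma list (63.2%), 11 of 25 of the type I list (44%), 5.25% of the genes that rose by at least 2-fold, 2.56% of those that fell by at least 2-fold and 2.87% of all promoters. The promoter of Gbp5 is shown because it holds a single copy, in capitals.
Gbp5, chr3:142496684-142496933, plus strand: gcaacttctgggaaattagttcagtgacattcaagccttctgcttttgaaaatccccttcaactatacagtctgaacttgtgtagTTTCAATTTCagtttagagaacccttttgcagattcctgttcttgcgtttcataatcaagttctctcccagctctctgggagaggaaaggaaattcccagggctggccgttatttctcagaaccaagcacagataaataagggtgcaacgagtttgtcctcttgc
The AP-1 motif TGACTCA stood in 5.59% of the promoters of genes that rose by at least 2-fold, 4.81% of those that fell and 3.34% of all.

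Genes of NF-κB signalling and cytokines, and of nucleic acid and pattern sensing, were higher. Of 37 NF-κB and cytokine genes 28 rose and 1, Cxcl13, fell (median 0.73). Tnfaip3, the deubiquitinase A20, was at 9.56, 8.87, 9.61 and 7.25 CPM in Ad-CTRL and 33.5, 21.1, 37.3 and 22.9 CPM in Ad-FAT10 (1.70 ± 0.19). Icam1, the adhesion molecule for leukocytes, rose by 1.62 ± 0.17 and Nfkb2 by 1.3 ± 0.19, and the inhibitor Nfkbia did not pass (0.28 ± 0.15, adjusted p = 0.144, though it passed without Ad-FAT10 CMC replicate 2). Of 27 genes of adenovirus entry and nucleic acid sensing 18 rose and 1 fell. Cxadr, the receptor that adenovirus binds, rose by 0.83 ± 0.12, the bacterial lipoprotein receptor Tlr2 by 2.02 ± 0.24, the DNA receptor Tlr9 by 2.60 ± 0.35 and the inflammasome gene Nlrp3 by 1.59 ± 0.19. The amount of vector in each liver is not stated in the labels, so vector load and FAT10 cannot be told apart as sources of any change here.

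Acute phase genes, which hepatocytes induce in inflammation, rested in part on 1 liver. Of 36 genes 15 rose and 3 fell, but without Ad-FAT10 CMC replicate 2 those numbers were 9 and 6, and without replicate 1 there were 5 falls. Saa1, a serum amyloid A gene, was at 1009, 251, 378 and 141 CPM in Ad-CTRL and 751, 5470.0, 343 and 479.9 CPM in Ad-FAT10. Saa2, its close copy, was at 449, 106, 260.4 and 81.5 CPM and 565, 6516, 265 and 376 CPM. In both genes replicate 2 stood far above all other livers, and the remaining 3 Ad-FAT10 livers lay among or near the controls. The log2 changes of 1.99 ± 0.71 and 3.11 ± 0.82 fell to 0.22 and 0.82 without that liver, and neither then passed (adjusted p = 0.734 and 0.15). The Saa1 call was also lost in 6 further fits, which left out Ad-CTRL CMC replicate 2, 3 or 4, used the 8 CMC libraries alone, used limma-voom or used a replicate block. Hp, haptoglobin, rose by 0.66 ± 0.20 (0.39 and adjusted p = 0.0868 without replicate 2). Lcn2, lipocalin 2, was at 55.8, 12.8, 33.9 and 18.8 CPM and 132, 544, 106 and 197 CPM. For Lcn2 every Ad-FAT10 liver was above every control, and the change of 3.02 ± 0.51 was 2.24 without replicate 2. Saa3, the serum amyloid gene of macrophages and other cells, rose by 2.75 ± 0.40 and Lbp, which presents lipopolysaccharide to CD14, by 0.90 ± 0.14, with no overlap in either gene.

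Hamp and Serpina3k are in the same list and fell. Hamp, which encodes the iron hormone hepcidin, was at 1292, 1404, 1000.2 and 1043 CPM in Ad-CTRL and 199, 218, 578 and 638 CPM in Ad-FAT10. Replicates 1 and 2 were the lowest livers, and replicates 3 and 4 were higher but still under every control (-1.54 ± 0.32, adjusted p = 0.00109). Bmp2, an endothelial signal that drives hepcidin, changed by -0.84 ± 0.16, and Tfrc, the transferrin receptor, rose by 1.23 ± 0.23. Serpina3k, an abundant serine protease inhibitor with close copies, changed by -1.28 ± 0.26.

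Genes of differentiated hepatocytes were lower across most functions, by less than the rises described above. Of 40 genes for proteins that hepatocytes secrete 0 rose and 25 fell at adjusted p under 0.05 (median -0.49, and 12 fell with library totals). Apoa2, an apolipoprotein of high-density lipoprotein, was at 5799, 6169, 5794 and 5541 CPM in Ad-CTRL and 2179, 2028, 2437 and 2124 CPM in Ad-FAT10 (-1.41 ± 0.13, adjusted p = 5.12e-07). The 4 values within each group were close, and no library of one group came near the other. Apoa1 changed by -0.99 ± 0.16, Rbp4, the carrier of retinol, by -0.93 ± 0.12, and Alb, which encodes albumin, by -0.65 ± 0.19 (not called with library totals, adjusted p = 0.1). Apob of very low-density lipoprotein did not pass (-0.21 ± 0.15, adjusted p = 0.269). The neutrophil, macrophage and T cell markers given above moved the opposite way in the same libraries, and their part in these falls was not tested.

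Of 28 hepatocyte transcription factors 1 rose and 15 fell (median -0.34, and 2 rose and 8 fell with library totals). The falls did not include Hnf4a, the central factor of hepatocyte identity, which was at 578, 629.5, 594 and 614 CPM in Ad-CTRL and 734, 749.7, 693 and 654 CPM in Ad-FAT10. It was slightly higher in all 4 Ad-FAT10 livers and did not pass in edgeR (0.23 ± 0.10, adjusted p = 0.062), but passed in DESeq2 and with library totals. Nr1i3, which encodes the xenobiotic receptor CAR, was at 36.9, 37.1, 38.1 and 31.1 CPM and 11.6, 11.2, 11.4 and 9.0 CPM, a drop to about a common low level in every Ad-FAT10 liver (-1.73 ± 0.14, adjusted p = 2.47e-07). Cebpa changed by -0.78 ± 0.14.

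**Figure D3:**
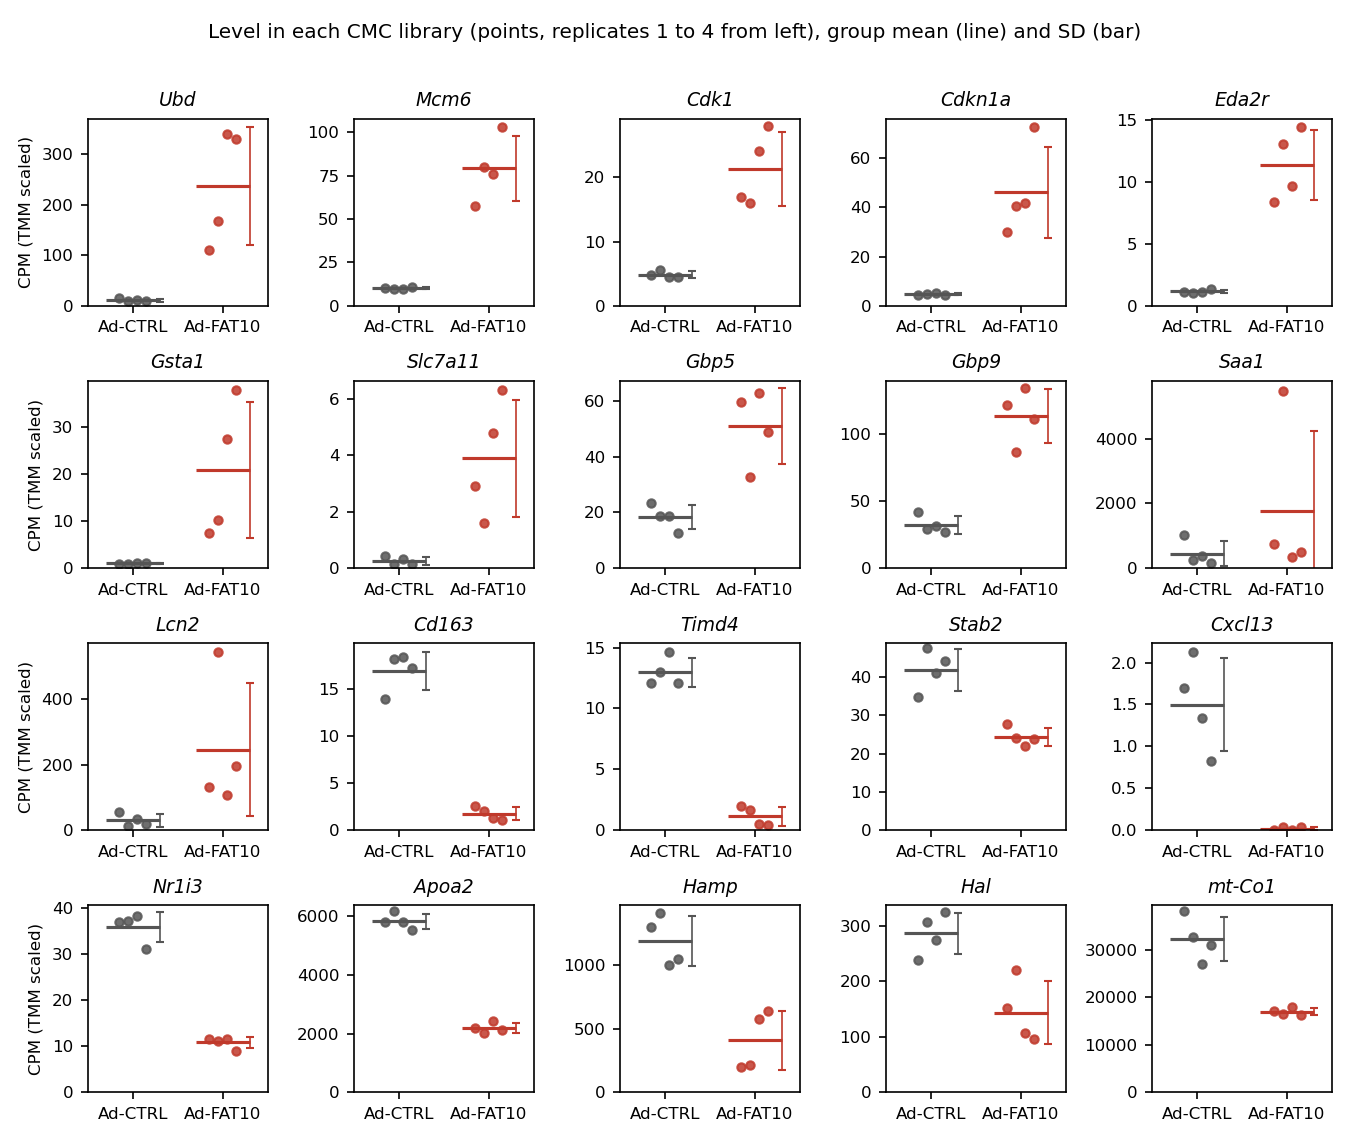
CPM after TMM scaling in each CMC library (points, replicates 1 to 4 from left to right), with the group mean as a line and the SD as a bar, for 20 genes named in the text. In every panel except Saa1 the Ad-FAT10 points lie wholly on one side of the Ad-CTRL points, and replicate 2 of Ad-FAT10 stands far above the rest for Saa1 and Lcn2. A bar that would pass below 0 ends at the axis.

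Genes of both zones of the liver lobule were lower on balance. Of 31 pericentral genes, expressed near the central vein under Wnt signals, 0 rose and 17 fell at adjusted p under 0.05 (median -0.51, and 2 rose with library totals). Of 29 periportal genes 14 fell and 5 rose (3 rose without Ad-FAT10 CMC replicate 2), with a median of -0.47. The Wnt inhibitor gene Notum, itself a target of Wnt signals, was at 19.8, 20.6, 17.7 and 30.9 CPM in Ad-CTRL and 8.53, 8.07, 8.2 and 9.06 CPM in Ad-FAT10 (-1.39 ± 0.17), and its level in the 4 Ad-FAT10 livers was nearly the same. Nkd1, another Wnt target, changed by -1.14 ± 0.16, the ethanol-oxidising Cyp2e1 by -1.04 ± 0.20 and Rgn of ascorbate synthesis by -1.14 ± 0.14. Among periportal genes the histidine-degrading Hal was at 239, 306, 275 and 325 CPM and 152, 219.7, 107 and 96.5 CPM, lower in all Ad-FAT10 livers and lowest in replicates 3 and 4 (-0.99 ± 0.27). The glutaminase gene Gls2 changed by -0.89 ± 0.14 and Cyp2f2 by -0.71 ± 0.19, while Cdh1, which encodes E-cadherin, rose by 0.76 ± 0.17.

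Genes that growth hormone controls through STAT5, many of them higher in male mice, fell in 15 of 35 cases and rose in 1 (median -0.89, and 3 rose with library totals). Ghr, the growth hormone receptor, was at 602, 533, 535 and 579 CPM in Ad-CTRL and 389.8, 317, 277 and 240.5 CPM in Ad-FAT10 (-0.88 ± 0.17), and the groups did not overlap. Igf1, its main target, changed by -0.76 ± 0.14 and the urinary protein gene Mup3 by -1.41 ± 0.27. Cyp17a1, of steroid synthesis, was the 1 gene that rose (1.54 ± 0.27).

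Genes of amino acid catabolism and the urea cycle were mostly lower, 33 of 45 with 1 higher (median -0.52, and 18 fell with library totals). Gnmt, which consumes S-adenosylmethionine, was at 1512, 1499.5, 1485 and 1518 CPM in Ad-CTRL and 656, 792, 615 and 641 CPM in Ad-FAT10 (-1.15 ± 0.13). The control values were almost equal, and all Ad-FAT10 livers lay well below them. Hpd of tyrosine breakdown changed by -1.13 ± 0.14. In the urea cycle, Ass1 changed by -0.60 ± 0.14 and Otc by -0.67 ± 0.17 (not called with library totals, adjusted p = 0.0551), but Cps1, its first enzyme, did not pass (-0.08 ± 0.16, adjusted p = 0.699). Of 54 genes for cytochromes P450 of families 1 to 3 and conjugation 27 fell and 4 rose (median -0.45). Cyp2c54 changed by -1.68 ± 0.25, Cyp2d26 by -1.03 ± 0.13 and the sulfotransferase gene Sult2a8 by -1.58 ± 0.24. Cyp2a4 rose by 3.21 ± 1.10 (adjusted p = 0.0254), which rests on 1 liver. It was at 0.293, 0.601, 3.37 and 5.04 CPM in Ad-CTRL and 0.826, 0.956, 5.27 and 79.7 CPM in Ad-FAT10, and without Ad-FAT10 CMC replicate 4 the change was 0.05 (adjusted p = 0.97). The call was also lost without Ad-CTRL CMC replicate 1 or 2, in the CMC libraries alone, in limma-voom and with a replicate block, and its near copy Cyp2a5, with which reads may be shared, did not pass (0.05 ± 0.33).

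In bile acid metabolism 15 of 28 genes fell and 3 rose (6 and 6 with library totals). Cyp7a1, which sets the rate of bile acid production, was at 245, 179, 361 and 346 CPM in Ad-CTRL and 246, 274, 70.8 and 127 CPM in Ad-FAT10, with overlapping groups and no call (-0.66 ± 0.37, adjusted p = 0.161, though called with no filter on low counts). Cyp27a1, of the alternative route, changed by -0.63 ± 0.12 and Slc10a1, the uptake carrier of bile salts, by -0.88 ± 0.17, while the efflux pump gene Abcb1a rose by 2.17 ± 0.30.

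Genes of oxidative metabolism were lower as a group. Of 40 genes for mitochondrial and peroxisomal fatty acid oxidation 0 rose and 28 fell at adjusted p under 0.05 (median -0.47, and 11 fell and 2 rose with library totals). Acaa2 changed by -0.71 ± 0.10 and Eci1 by -0.84 ± 0.10, both of mitochondrial beta-oxidation, but Cpt1a, its gate at the mitochondrial membrane, did not pass (-0.24 ± 0.13, adjusted p = 0.156, though it passed without Ad-FAT10 CMC replicate 1). Of 48 PPARα targets 20 fell and 5 rose, and their median of -0.26 flipped to 0.03 with library totals, with 12 falls and 8 rises. The fatty acid binding protein gene Fabp1 changed by -1.14 ± 0.16 and Acsl1, which activates fatty acids, by -1.02 ± 0.17. Ehhadh was at 251, 294, 246 and 229 CPM and 458, 198, 242 and 177 CPM and did not pass, and Ucp2 rose by 0.96 ± 0.16.

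Of 40 nuclear genes of oxidative phosphorylation 0 rose and 31 fell at adjusted p under 0.05 (median -0.40, and 7 fell and 2 rose with library totals). Ndufa2, of complex I, was at 73.3, 71.2, 73 and 69.5 CPM in Ad-CTRL and 32.9, 38, 41.8 and 39.5 CPM in Ad-FAT10 (-0.91 ± 0.12), with narrow spread in both groups and no overlap. Uqcrb, of complex III, changed by -0.81 ± 0.12 and Sdhb, of complex II, by -0.63 ± 0.12. Of 12 genes of the mitochondrial genome 9 fell (median -0.76, and 5 fell with library totals). The transcript mt-Co1, for the catalytic subunit of cytochrome oxidase, went from 32213 ± 4668 to 17000.3 ± 781 CPM (-0.92 ± 0.19), and mt-Cytb changed by -0.75 ± 0.19. Libraries made with poly(A) selection hold mitochondrial transcripts in proportions that can vary with RNA quality, which was not given per sample.

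Several isoenzymes of glucose use that are found mainly outside hepatocytes rose. Of 39 genes for glycolysis, gluconeogenesis and glycogen 14 rose and 8 fell (5 fell without Ad-FAT10 CMC replicate 3, and 20 rose and 3 fell with library totals). Pkm, the pyruvate kinase of cells other than hepatocytes, was at 29.4, 24.7, 32.5 and 31.4 CPM in Ad-CTRL and 104, 92.1, 101 and 106 CPM in Ad-FAT10 (1.77 ± 0.21), and every Ad-FAT10 liver lay well above every control. The hexokinase genes Hk2 and Hk3 rose by 1.3 ± 0.20 and 1.43 ± 0.17 and the phosphofructokinase gene Pfkp by 1.64 ± 0.22. In the pentose phosphate pathway Pgd rose by 1.77 ± 0.26 and G6pdx by 0.84 ± 0.15. The part of the macrophage and neutrophil markers that rose in the same livers was not tested. Of 30 genes of sterol synthesis 7 fell and 1 rose (4 and 5 with library totals), with a median of -0.29. Among all genes tested 20.2% fell and 22.5% rose. Tm7sf2 was among the lower ones (-1.26 ± 0.13).

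In the TMM fit under CMC, genes for making ribosomes and for ribosomal proteins went opposite ways, but the fall of the latter depended on the scaling. Of 39 genes for ribosome biogenesis 18 rose and 1 fell (median 0.24, and 34 rose with library totals), and Nop58, a core protein of box C/D particles, rose by 0.93 ± 0.15. Of 49 cytosolic ribosomal protein genes 0 rose and 20 fell at adjusted p under 0.05, all by less than 2-fold (median -0.28). This count was 0 with library totals, under which 2 rose and the median flipped to 0.02, 35 with DESeq2 and 13 with no filter on low counts. It was 10 without Ad-CTRL CMC replicate 1, 7 without Ad-CTRL CMC replicate 2, 6 without Ad-FAT10 CMC replicate 1 and 13 without Ad-FAT10 CMC replicate 4. In the same virus comparison under pemafibrate 0 of the 49 rose and 0 fell at adjusted p under 0.05 in edgeR, with a median of -0.03. Of 35 genes for splicing and nuclear export 20 rose and 1 fell, with Hnrnpa1 at 0.76 ± 0.09. Of 39 autophagy and lysosome genes 11 fell and 5 rose, where 20.2% of all genes tested fell and 22.5% rose. With library totals 4 fell and 20 rose, and the median flipped from -0.05 to 0.24. The ubiquitin-like gene Map1lc3a changed by -0.63 ± 0.10 and the conjugating enzyme gene Atg3 by -0.70 ± 0.10. Among genes often used as references, Actb rose from 475 ± 63.2 to 1027 ± 158 CPM (1.11 ± 0.15), while Gapdh did not pass (0.15 ± 0.13, adjusted p = 0.377, though called with library totals).

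**Figure D4:**
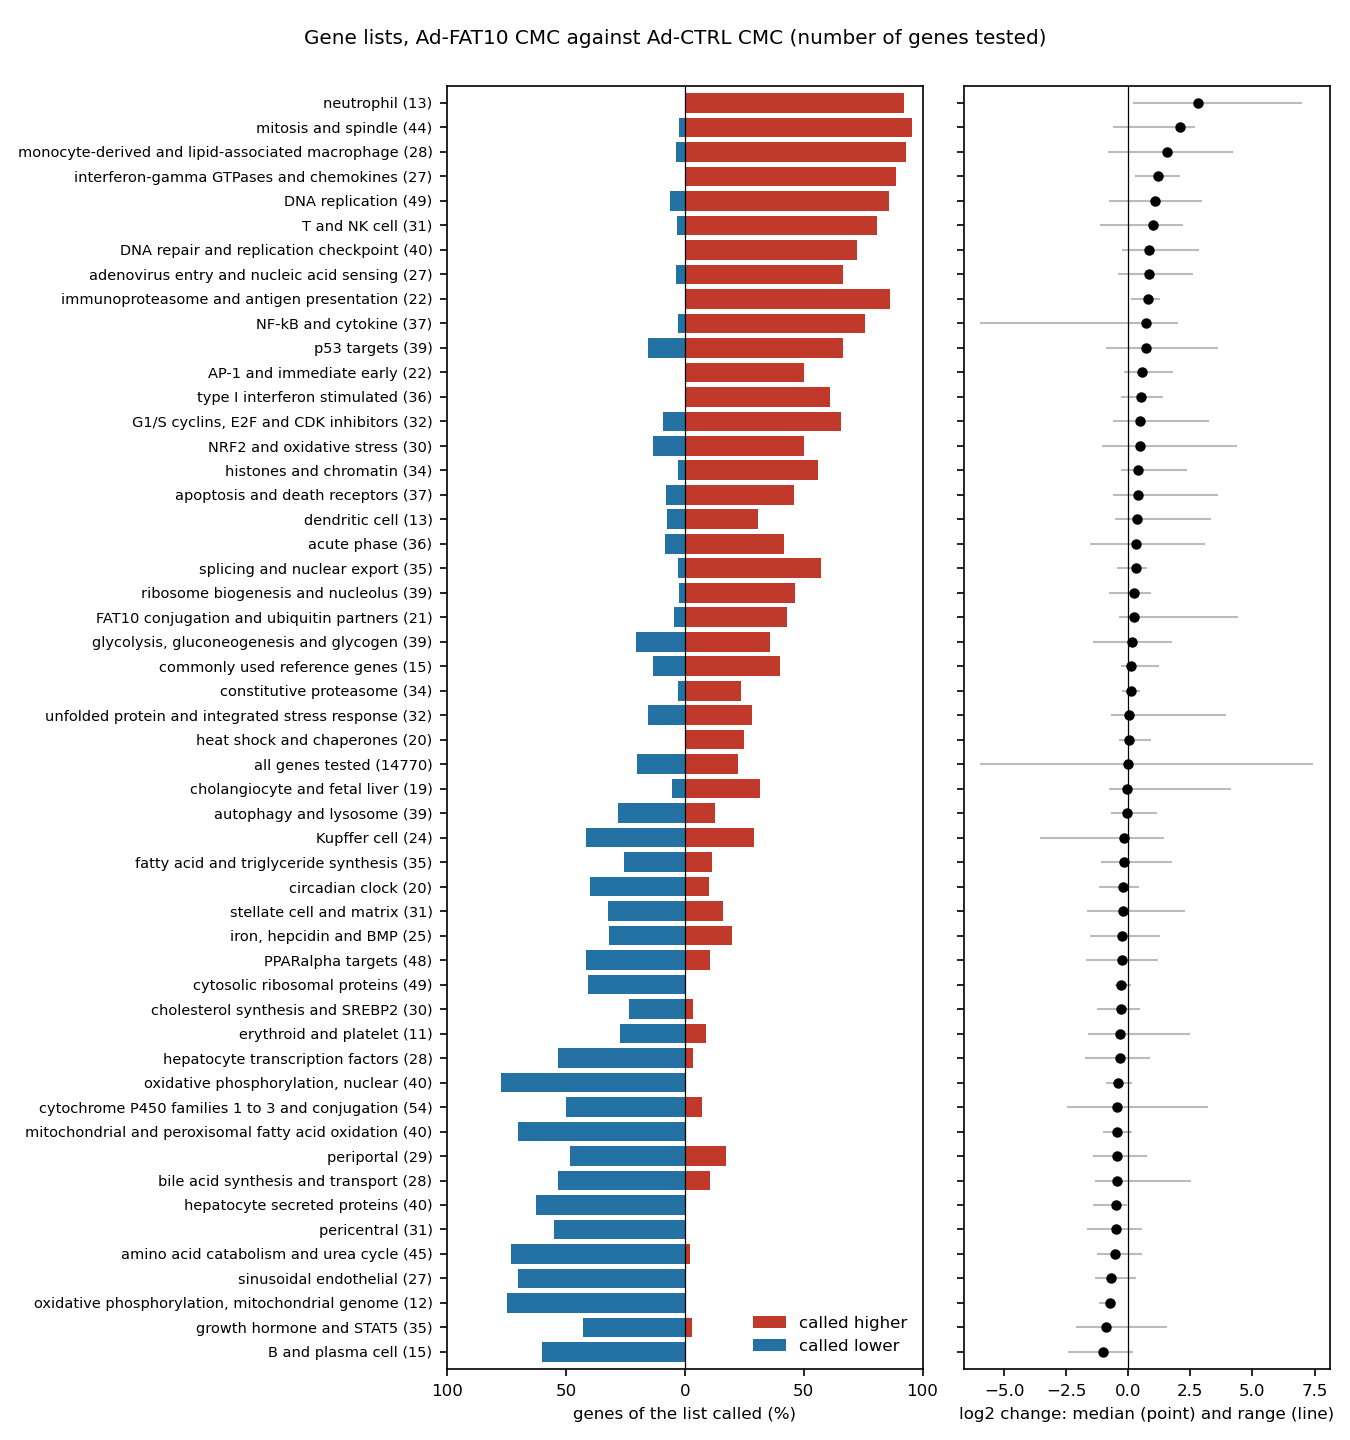
Share of the genes of each list called higher (red, right) or lower (blue, left), with all 14770 genes tested as 1 row, and the median log2 change (point) with the lowest and highest gene (line) beside it. Lists are ordered by their median, from 2.81 for neutrophils to -1.01 for B and plasma cells.

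Families grouped by the stem of the symbol, with at least 8 members tested, showed the same division. The families with the largest share of members higher were Slfn, the Schlafen genes (8 of 8, median 1.44), Gbp (10 of 11, median 1.27), Parp, the ADP-ribosyl transferases (10 of 12, median 0.60), Ly (8 of 10), Ms, mostly the Ms4a genes (8 of 10), and Nup, the nuclear pore proteins (16 of 20, median 0.45). Those with the largest share lower were Ndufa (12 of 14, median -0.59), Ndufb (9 of 12) and Ndufs (6 of 8) of complex I, Rdh of retinol metabolism (7 of 10), Chchd (6 of 9) and Smim (11 of 17). Smim, a stem for small membrane proteins, groups genes with no common function.

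The same virus comparison under pemafibrate uses none of these 8 libraries, and 6160 genes (41.7%) passed the test there. The log2 changes of the 2 comparisons had Pearson's r = 0.834 and Spearman's rho = 0.798 across the 14770 genes, which are not independent replicates and share 1 estimate of the spread. Of the 6293 genes called under CMC, 2379 were higher and 1987 lower in both, which is 69.4% of the calls under CMC and 70.9% of those under pemafibrate, and 18 were called in opposite directions. Of the rises of at least 2-fold 87.2% were called higher under pemafibrate, and of the falls of at least 2-fold 68.9% were called lower. Ubd went from 27.5 ± 14.4 to 459.8 ± 64.3 CPM there, Mcm6 from 13.1 ± 2.22 to 81.8 ± 8.53 CPM and Cd163 had a log2 change of -4.34 ± 0.31.

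The difference between the 2 comparisons was itself tested as an interaction, which was called for 23 genes (0.156%) in edgeR, 120 in DESeq2 and 1591 at an unadjusted p under 0.05. The 6 genes with the smallest p among those called under CMC all had a rise under CMC that was absent or turned under pemafibrate. Not all of the 23 had this pattern. Chil1 rose under both (3.26 ± 0.25 and 1.20 ± 0.22), and Map2k3 fell under CMC (-0.54 ± 0.08). Il1rn, which encodes the antagonist of the interleukin 1 receptor, was at 15.3, 8.36, 8.37 and 8.64 CPM in Ad-CTRL CMC and 36.4, 24.9, 51.7 and 44 CPM in Ad-FAT10 CMC. Under pemafibrate it was at 56.7 ± 5.05 and 55.2 ± 11.1 CPM, so that both means with the drug were above the highest Ad-FAT10 CMC liver (interaction -2.0 ± 0.30, adjusted p = 0.0106). Pawr, a pro-apoptotic regulator, went from 10.2 ± 0.742 to 19.5 ± 3.23 CPM under CMC and from 23.9 ± 2.12 to 22.7 ± 1.52 CPM under pemafibrate (interaction -1.01 ± 0.15). Rc3h1, which encodes the RNA-binding repressor roquin-1, changed by 0.26 ± 0.09 under CMC and -0.48 ± 0.08 under pemafibrate (interaction -0.74 ± 0.12). Its CMC call was lost without Ad-FAT10 CMC replicate 1 and with no filter on low counts (highest adjusted p = 0.073). The others of the 6 are Gm36283 (interaction -1.88 ± 0.23), BC030867 (-2.09 ± 0.33) and Gm15441 (-2.90 ± 0.47). Gm15441 went from 0.605 ± 0.277 to 2.29 ± 1.65 CPM under CMC and from 315.7 ± 31.9 to 152.4 ± 13.1 CPM under pemafibrate. The number of interaction calls moved between 11 and 36 when single libraries were left out, by over 1.5 times without Ad-CTRL CMC replicate 1 (15), 3 (14) or 4 (14), Ad-CTRL Pema replicate 1 (36), 3 (11) or 4 (11), replicate 3 of Ad-FAT10 CMC (12), or replicate 2 (14) or 4 (13) of Ad-FAT10 Pema.

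**Figure D5:**
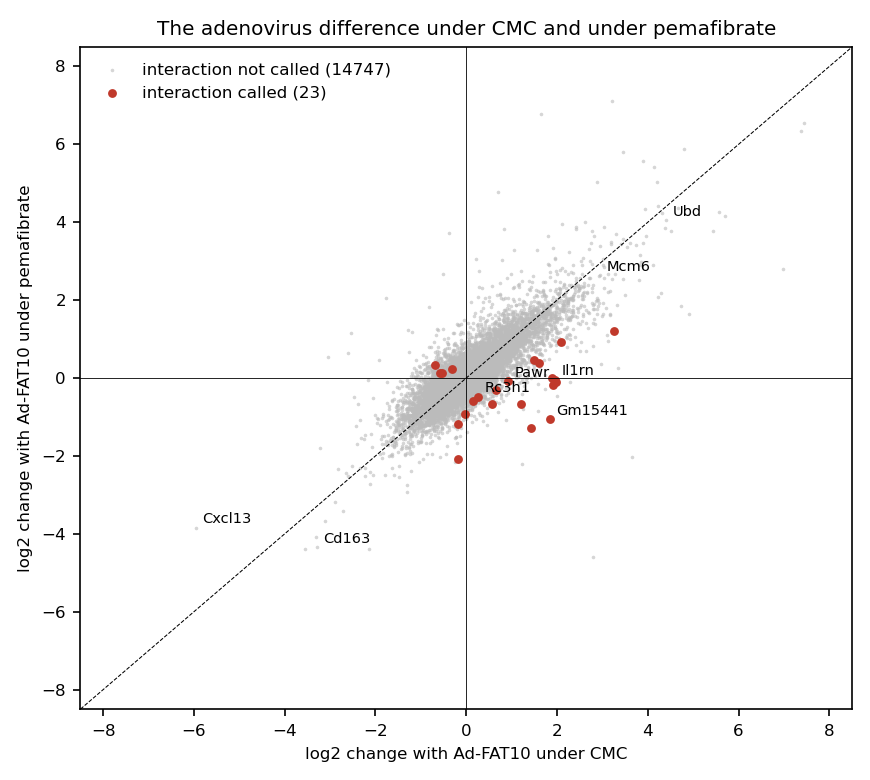
Log2 change with Ad-FAT10 under CMC (horizontal axis) and under pemafibrate (vertical axis), 1 point for each of the 14770 genes tested, with the 23 genes of the called interaction in red and a dashed line where both are equal. Most points follow the line, and Il1rn and Pawr lie to the right of it near 0 on the vertical axis.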

How the data were processed

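Liver RNA from 16 mice was sequenced as poly(A)-selected, strand-marked libraries, 4 in each of 4 groups. Each library has 1 deposited file of raw read counts, with Ensembl gene identifiers and no scaling. Per the submitters' processing notes, the authors used STAR 2.7.6, the build GRCm39 and DESeq2 (2.11.40.6 and 1.36.0). The counting program and its strand setting are not named in the labels, so reads of overlapping or antisense genes may be shared. Symbols came from a GRCm38 annotation and matched 52083 of 55416 identifiers (94.0%), and the 3333 without a symbol held 0.1% of the counts.

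The main test was edgeR 4.0.16 (quasi-likelihood, TMM factors, filterByExpr) on all 16 libraries with 1 mean per group, adjusted by Benjamini-Hochberg over 14770 genes. A call is an adjusted p under 0.05, and printed p-values for genes are from this fit unless another is named. The SE of a log2 change was derived from the test, as the size of the change over the square root of its F statistic. Groups follow the titles. Nothing in the labels says that replicates share a source, but they do not describe how each was obtained, so p-values measure the spread between these samples. For shares of counts the exact permutation test (two-sided) was used. Alternatives were DESeq2 1.42.0, limma-voom (limma 3.58.1), other scalings and filters, the 8 CMC libraries alone, a replicate block, glmTreat against 1.5-fold, and leaving out each library. On simulated counts for the CMC comparison (14560 genes tested), 66, 67 and 65 genes were changed by 1.5, 2 and 4-fold, upward and downward alike. The fit recovered 40.9%, 76.1% and 93.8% of them, and 7.3% of its calls were false. Far more genes were called in the real comparison (42.6%), where the split into rises and falls moved with the scaling. The simulation had no such shift, so its rates cannot be carried over to the real calls.

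The comparison and the 51 gene lists were chosen with earlier results of these data known, so lists are described by counts and medians and not tested. The exception is the share of counts in the secreted protein list, whose p-value carries that limit. Genes named are Ubd, the 15 largest and the 15 most significant rises and falls, up to 6 members with the smallest p and the first 4 tested members of each list, the 12 largest gains and losses of CPM, and 6 interaction genes, and the text names 226 of them. Some genes are not reported here. Promoters are the 250 bases before the first listed start in RefSeq (GRCm38.p6), which matched 10910 of the genes tested. Exact intervals and floors cover counting error only.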

Additional observations from a re-analysis of the deposited data

Results flagged for a closer look

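In 460 sets of 4 libraries, each the values of 1 named gene or library measure in 1 CMC group, 29 held a sample whose gap to its nearest neighbour, as a share of the range of the set, was beyond Dixon's 95% critical value. Chance gives about 1 in 20.

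Ad-FAT10 replicate 2 was the far sample in 6 of these sets. It was the highest for Saa1 (5470.0 CPM), Saa2 (6516 CPM), Ass1 (1999 CPM) and the share of counts in the 10 most abundant genes (16.3%). It was the lowest for Hspa5 (436 CPM) and Pfkp (14.95 CPM). Ad-FAT10 replicate 1 was the highest for Acsl1 (719.7 CPM), Ptprb (33 CPM), Rc3h1 (38 CPM) and Clock (35.1 CPM), and the lowest for Cxadr (91.1 CPM) and total counts (19859255). Ad-FAT10 replicate 4 was the highest for Cyp2a4 (79.7 CPM) and Mcm4 (28.1 CPM) and the lowest for Nr1i3 (9.0 CPM) and Otc (319 CPM).

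Among the controls, Ad-CTRL replicate 1 was the highest for 5 genes of leukocytes or inflammation, Cd4 (4.87 CPM), Zap70 (12.1 CPM), Ccr2 (8.62 CPM), Ly6c2 (4.99 CPM) and Il1rn (15.3 CPM). Ad-CTRL replicate 2 was the lowest for Cd3e (0.277 CPM) and Gpnmb (0.185 CPM), and the highest for Hbb-bs (103.2 CPM). Ad-CTRL replicate 3 was the highest for Krt19 (1.57 CPM) and Ly6d (1.9 CPM) and the lowest for Ccne1 (3.88 CPM), Cbr3 (0.601 CPM) and Gm36283 (0.508 CPM).

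For 6 genes the log2 difference between the viruses was itself different under pemafibrate and CMC by edgeR's interaction term. The pemafibrate value less the CMC value was -2.0 for Il1rn (adjusted p = 0.0106), -1.01 for Pawr (0.0106), -0.74 for Rc3h1 (0.0148), -1.88 for Gm36283 (0.00263), -2.09 for BC030867 (0.0135) and -2.90 for Gm15441 (0.0148).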

How the results depend on the processing

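Library totals alone gave 6365 higher and 1061 lower genes, and 1898 and 199 of at least 2-fold; 4377 of its 7426 calls were also called with TMM. Every other scaling, tool and filter kept the CMC counts within 1.5 times (5845 to 6500 calls). The interaction gave 120 genes with DESeq2 and 93 with no filter on low counts. Leaving out single libraries gave 5335 to 6616 calls under CMC, 11 to 36 interaction genes, and differences of -2.62 to -1.64 (mitochondrial share), -4.66 to -4.0 (10 most abundant genes) and -4.39 to -3.40 percentage points (secreted proteins), the last 3 at p = 0.0571 in the exact permutation test, the smallest that 4 against 3 allows. With a replicate block 6074 genes were called (3191 higher, 2883 lower). The deviations of same-numbered CMC libraries correlated at 0.0495, -0.0723, -0.137 and 0.131, and 3 of the 8 libraries correlated best with their own number, so the numbers were not treated as pairs. Of the recomputed counts of list genes called in 1 direction, 164 moved by over 1.5 times or to or from 0, and 2488 did not. Ube2z, Ccnd3, Bcl2l1, Gclm and H2-K1 passed with library totals only. Depth limits genes under about 0.161 CPM by library totals, a floor that TMM scaling moves.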

Other observations

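Immediate early genes and other stress-induced factors were higher in Ad-FAT10 livers. Of 22 genes of the AP-1 and immediate early list 11 rose and 0 fell at adjusted p under 0.05 in edgeR (median 0.57, 16 and 0 with library totals). Klf6, a zinc finger factor induced by injury, was at 17.8, 16.6, 14.8 and 12.3 CPM in Ad-CTRL and 44.8, 37.5, 49.1 and 40.5 CPM in Ad-FAT10 (1.48 ± 0.19), and no library of one group reached the other. Egr2 rose by 1.80 ± 0.29, the death-protective Ier3 by 1.77 ± 0.24 and Fos by 1.22 ± 0.32.

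Genes outside the hepatocyte and leukocyte lists above were divided. For comparison, 22.5% of all genes tested rose and 20.2% fell. In the circadian list of 20 genes 8 fell and 2 rose, and its median of -0.21 flipped to 0.08 with library totals, with 4 falls and 2 rises. The falls include the PAR-domain factors Dbp (-0.83 ± 0.16), Tef (-0.57 ± 0.11) and Hlf (-0.63 ± 0.15), while the core gene Clock was at 28.5 ± 4.07 and 28.9 ± 4.14 CPM (adjusted p = 0.922 in edgeR). Of 25 genes of iron handling 8 fell and 5 rose (5 and 5 with library totals, under which the median of -0.25 flipped to 0.03), and Smad6, a target of BMP signals, changed by -0.83 ± 0.15. Among erythroid genes, Alas2 of haem synthesis changed by -0.88 ± 0.16 while the globin gene Hbb-bs was at 63 ± 27.1 and 48.9 ± 13.7 CPM (adjusted p = 0.331). The lipogenic genes Srebf1 and Acly did not pass (adjusted p = 0.519 and 0.525), and Dgat2, the last step of triglyceride synthesis, changed by -0.61 ± 0.14. The dendritic cell list gave 4 rises and 1 fall in 13 genes (2 rises without Ad-FAT10 CMC replicate 2). It is not limited to conventional dendritic cells and includes Ly6d and Irf8, whose rises are given above. Xcr1, a defining gene of conventional dendritic cells, did not pass (adjusted p = 0.711).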
